A study of Mus musculus with 37 samples.

Results

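The signal of the 1 probe for Tomm22 on the array split 37 mice of a chromosome 15 cross into 11 mice with a low signal and 26 mice with a high signal. The division was made on the quantile-normalized linear signal of that probe, with low defined as under 200 and high as 200 or more, so that the Tomm22 values are what chose the groups and are given here as a description. The mice were females of the CSS15F2 population, bred from C57BL/6J mice and a strain that carries chromosome 15 of A/J on the C57BL/6J background, and were 3 to 4 months old. Only chromosome 15 varies between the mice of such a cross, and both groups are otherwise alike in sex, background and tissue. Age is given only as a range for the whole cross, so it could not be compared between the groups. Left hippocampus was punched from frozen brain, and the RNA of each mouse was hybridized to its own Illumina MouseRef-8 array. The study used the arrays to relate hippocampal transcript levels to genotype at chromosome 15. It also related modules of co-expressed genes to motor activity in a new environment. The mice had been through behavioral tests in an open field, a home cage system, an elevated plus maze and a light-dark box. Genotypes of the single mice were not used here, and the low and high groups are therefore groups of signal and not of genotype.

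Tom22, the product of Tomm22, is a receptor of the mitochondrial outer membrane. It takes up proteins made in the cytosol and passes them to the channel formed by Tom40, and it holds the other receptors of the complex in place. The study marks the Tomm22 probe as one that holds a single nucleotide polymorphism (SNP) between the parental strains. It regards its linked chromosome 15 probes with such a SNP, Tomm22 and Mgat3 among them, as likely artifacts. The study left these probes out of its later steps. A mismatch below a probe can lower hybridization without a change of the transcript, and for the Tomm22 probe these cannot be told apart, because no other probe for the gene was on the array. Of the genes compared below, Mgat3 encodes the glycosyltransferase that adds the bisecting N-acetylglucosamine to N-linked glycans, and Ly6a encodes Sca-1, a mouse surface protein of the Ly6 family that is held in the membrane by a glycolipid anchor.

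The start of Tomm22 is shown because this gene sets the groups. The stretch runs from 250 bases before the start of transcription to 50 bases after it, on the plus strand of chromosome 15 (RefSeq, GRCm38.p6, chr15:79670618-79670917). The capitals mark the motif CCGGAAG, the core bound by ETS factors, or its reverse complement CTTCCGG, which occurred 3 times, the first pair overlapping.
Tomm22 promoter: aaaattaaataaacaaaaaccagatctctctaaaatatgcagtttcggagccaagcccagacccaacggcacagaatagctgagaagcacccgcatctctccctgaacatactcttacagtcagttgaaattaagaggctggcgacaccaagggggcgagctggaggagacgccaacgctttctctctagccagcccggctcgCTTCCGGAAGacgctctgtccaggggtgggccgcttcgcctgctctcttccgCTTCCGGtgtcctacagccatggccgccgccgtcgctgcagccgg
Of 32851 mouse promoters of the same length, 8.86% held this motif on either strand. The match is a description of the letters, and the array gives no measurement of binding to them.

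In the low group the normalized Tomm22 signal was 13.4 in the lowest mouse, 35.1 at the median and 84.2 in the highest. In the high group it was 499 in the lowest mouse, 962 at the median and 2407 in the highest. No mouse lay between 84.2 and 499, and the mice nearest to the limit of 200 were mouse 61 among the low mice and mouse 127 among the high mice. After background correction the same probe lay between 4.98 and 6.64 on the log2 scale in the low group and between 9.01 and 11.24 in the high group. The probe counted as detected (detection score over 0.99) in 10 of 11 low mice, all but mouse 99, and in 26 of 26 high mice. The low mice made up 29.7% of the cross (exact 95% binomial interval 15.9% to 47.0%, counting error only). The widest gap in the values normalized by the authors, and in the background-corrected values, gave the same 11 and 26 mice.

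Measures of array quality overlapped between the groups. Detected probes ranged from 6205 to 10639 in low mice (median 8609) and from 5281 to 10724 in high mice (median 8763), with p = 0.27 by a two-sided permutation test (Benjamini-Hochberg adjusted over 3 array measures, 0.80). The median signal and the 95th percentile gave p = 0.80 and p = 0.58 by the same test. BeadChips of the lower number series (chip set 1) held 6 low and 20 high mice, and those of the higher series (chip set 2) held 5 low and 6 high mice. Of the 13 BeadChips, 10 held mice of both groups. Markers of dentate granule cells (C1ql2) and of CA1 pyramidal cells (Fibcd1) were detected on all 37 arrays, and none of 3 Y chromosome genes on the array passed the detection limit used for the comparison.

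**Figure D1:**
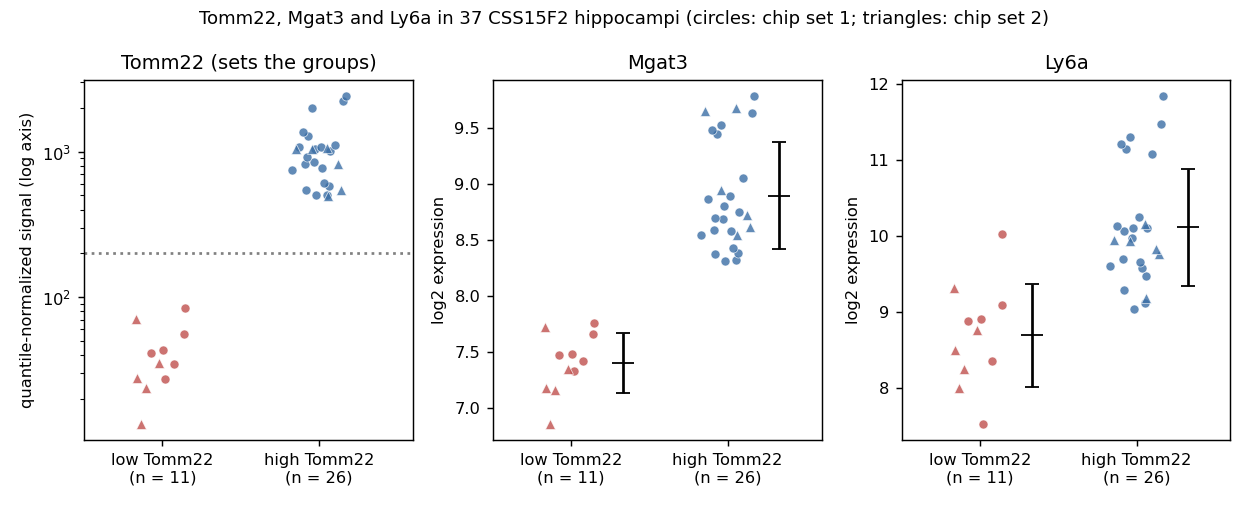
Quantile-normalized Tomm22 signal (left, log axis, dotted line at 200) and log2 expression of Mgat3 (middle) and Ly6a (right) in 11 low-Tomm22 and 26 high-Tomm22 mice. Each point is a mouse, circles are chip set 1 and triangles chip set 2, and black bars give the mean and SD. Mgat3 does not overlap between the groups, whereas 14 high mice lie below the highest low mouse for Ly6a.

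Which other transcripts differ between low- and high-Tomm22 mice was tested for 8540 probes detected on at least 19 arrays. Mgat3 and Ly6a were lower in low-Tomm22 mice and no probe was higher. These 2 probes were 0.0234% of those tested (limma, Benjamini-Hochberg adjusted p under 0.05 over all probes), and both genes lie on chromosome 15. In tissue of mixed cells, fewer cells of a type and less RNA per cell cannot be told apart. At an unadjusted p under 0.05 there were 269 probes (3.15%), 84 of them lower in low mice (0.984%) and 185 higher (2.17%). This count moved with single mice and with the scaling. It was 883 (308 lower, 575 higher) without mouse 61, 132 (45 lower, 87 higher) without mouse 152 and 33 (7 lower, 26 higher) with arrays centred on their median. Counts at an unadjusted p are given below as descriptions against these shares. The median standard error of a log2 difference was 0.16, and the 95% interval reached 0.32 to either side at the median.

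The Mgat3 probe separated the groups completely. Its log2 expression was 6.86 in the lowest low mouse, 7.42 at the median and 7.76 in the highest. In the high mice it was 8.31 at the lowest, 8.74 at the median and 9.78 at the highest. The groups thus lay 0.56 apart at their nearest mice, and Mgat3 was the only 1 of the 8540 probes (0.0117%) whose groups did not overlap. The means were 7.40 ± 0.27 (SD, n = 11) and 8.90 ± 0.48 (SD, n = 26), a log2 difference of -1.49 (SE 0.15), or 2.82-fold lower in low mice (limma adjusted p = 3.8e-08). The difference was -1.33 (SE 0.20, limma adjusted p = 0.0021) within chip set 1 and -1.77 (SE 0.25, limma adjusted p = 0.042) within chip set 2. Mgat3 is the ninth of the tested genes beyond Tomm22 along the chromosome, and its probe also holds a SNP according to the study, so that the transcript level and the hybridization cannot be told apart here either. When arrays were centred on their median without quantile normalization, the difference was -1.28 and no longer passed (limma adjusted p = 0.88).

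Mgat3 was not uniform among the high mice. The widest gap among them fell between 9.05 and 9.45, with 19 mice below it and 7 mice above it (mice 57, 76, 108, 115, 126, 129 and 155). This gap was noticed in the values and was not tested.

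The Ly6a probe, which the study does not mark for a SNP, was lower in low-Tomm22 mice with overlap between the groups. Log2 expression was 7.53 in the lowest low mouse, 8.77 at the median and 10.03 in the highest. It was 9.05 in the lowest high mouse, 9.97 at the median and 11.85 in the highest. Of the 26 high mice, 14 lay below the highest low mouse, and 3 of the 11 low mice lay above the lowest high mouse. The highest low mouse was mouse 61, which also had the highest Tomm22 signal and the fewest detected probes (6205) of its group. The means were 8.70 ± 0.68 (SD, n = 11) and 10.12 ± 0.77 (SD, n = 26), a log2 difference of -1.42 (SE 0.26), or 2.68-fold lower in low mice (limma adjusted p = 0.010). Within chip set 1 the difference was -1.41 (SE 0.37, limma adjusted p = 0.99) and within chip set 2 it was -1.24 (SE 0.24, limma adjusted p = 0.61), so the size was near that in all mice but did not pass in either set. Without mouse 100, the low mouse with the lowest Ly6a value, the adjusted p was 0.053. Ly6a lies 76 tested genes before Tomm22.

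Ly6a and its relatives form a cluster on chromosome 15. Of 16 listed members of the family, 5 genes with 7 probes were detected widely enough to be tested, and 1 probe passed. Ly6e, a neighbour of Ly6a that encodes another anchored surface protein, was 10.58 in the lowest low mouse, 11.10 at the median and 11.35 in the highest. In high mice it was 10.65, 11.60 and 12.15. Nearly all low mice (10 of 11) were above the lowest high mouse, while 8 high mice were below the highest low mouse. The log2 difference was -0.48 (SE 0.12, limma adjusted p = 0.50), and without mouse 145, the high mouse with the lowest Ly6e, it was -0.52 and passed (limma adjusted p = 0.042). The 3 probes of Ly6h differed by -0.24, -0.19 and -0.12, and Lynx1, which encodes a modulator of nicotinic acetylcholine receptors, by 0.10. Ly6c1, an endothelial member whose probe holds a SNP, differed by 0.06, and the median of the 7 probes was -0.19 against 0.03 for all probes tested.

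**Figure D2:**
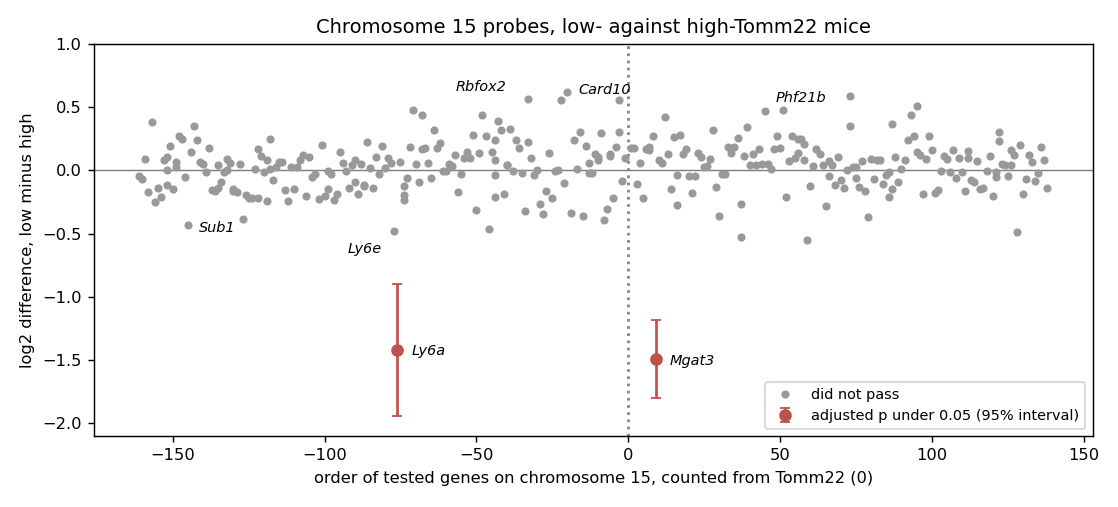
Log2 difference (low minus high) of 338 chromosome 15 probes against the order of tested genes counted from Tomm22 at 0. Red points with 95% intervals are Ly6a and Mgat3, which passed the adjusted test, and grey points did not.

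Along chromosome 15, 338 probes of 299 genes were tested, 161 genes before Tomm22 and 138 after it. An unadjusted p under 0.05 was reached by 26 of them (7.69%), 9 lower and 17 higher in low mice. On the other chromosomes the share was 3.04% together, and the highest single share was 4.22%, on chromosome 5. Without mouse 61 the shares were 16.3% on chromosome 15 and 10.5% on the others, and without mouse 152 they were 4.73% and 1.48%. In the main fit the share on chromosome 15 was largest close to Tomm22. It was 16.7% of the 24 probes in the 20 genes before it and 22.7% of the 22 probes in the 20 genes after it. In the next 40 genes it was 11.1% of 45 probes before and 6.98% of 43 probes after Tomm22. It was 6.90% of 116 probes in the part before the nearest 60 genes and 1.14% of 88 probes in the part beyond the nearest 60 genes on the other side. The 20 genes on both sides together had 19.6%, against 5.82% beyond them. These 2 shares were 30.0% and 8.18% with detection on all 37 arrays. With arrays centred on their median they were 6.52% and 2.05%. Within chip set 1 they were 6.52% and 3.77%, and with the BeadChip as a fixed block 8.70% and 3.08%. With single mice left out the near share ran from 10.9% to 28.3%. The median difference on chromosome 15 was 0.04, against 0.03 on the other chromosomes.

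The genes next to Tomm22 were measured by 14 probes, for 6 genes on each side, and none passed the adjusted test. Before Tomm22, the probe of Tmem184b, which encodes a membrane protein, differed by 0.19 (unadjusted p = 0.045 by limma). Both probes of Pick1, a scaffold of AMPA receptor trafficking, were slightly higher in low mice (0.13 and 0.11), as were those of Csnk1e, a kinase of the circadian clock (0.31 and 0.55). Maff, a small basic leucine zipper factor, differed by -0.22, the potassium channel gene Kcnj4 by -0.09 and the RNA helicase gene Ddx17 by 0.10. After Tomm22, the deubiquitinase gene Josd1 was 0.18 higher in low mice (unadjusted p = 0.032 by limma) and the growth factor gene Pdgfb was 0.22 lower (difference -0.22, unadjusted p = 0.036 by limma). The nuclear envelope gene Sun2 (0.18), Npcd (-0.10), the Polycomb gene Cbx7 (0.06) and the ribosomal protein gene Rpl3 (0.17) had larger unadjusted p values. The largest difference among these neighbours was thus the 0.55 of a Csnk1e probe, against -1.49 for Mgat3.

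The study lists 18 chromosome 15 probes besides Tomm22 whose level was linked to genotype on the same chromosome. The list was chosen on these samples and is no independent evidence. Of the 18, 14 were tested and 2 passed, Mgat3 and Ly6a. At an unadjusted p under 0.05 there were 4 lower and 5 higher in low mice, against 0.984% and 2.17% of all probes, and the median difference was 0.16.

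**Figure D3:**
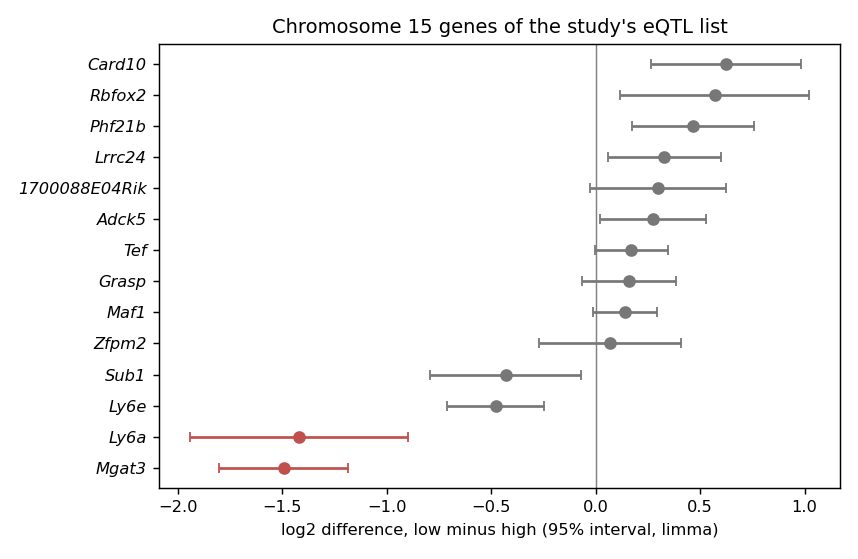
Log2 difference (low minus high) with the 95% limma interval for the 14 tested chromosome 15 probes of the study's list. Mgat3 and Ly6a in red lie near -1.49 and -1.42, and the next largest difference is Card10 at 0.62.

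The largest opposite difference in this list was that of Card10, which encodes a scaffold that couples receptors to NF-kB. Its log2 expression was 8.44 in the lowest low mouse, 8.70 at the median and 9.41 in the highest. In high mice it was 6.95, 8.32 and 9.17. Of the high mice, 16 lay below the lowest low mouse and the groups otherwise overlapped. The log2 difference was 0.62 (SE 0.18, limma adjusted p = 0.88). The 5 high mice with the lowest Card10 (mice 155, 126, 129, 115 and 108, from 6.95 to 7.62) were all among the 7 with the highest Mgat3, and the next lowest value, 7.73, was that of a mouse outside the 7. Card10 lies 20 tested genes before Tomm22. The order was noticed in the values and was not tested, and the Ly6a values of the same 7 mice ran from 9.30 to 10.26, below those of the 6 highest high mice.

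Of the other members that were higher in low mice, Phf21b, which encodes a zinc finger protein, had a log2 difference of 0.47 (SE 0.14). It was 0.72 within chip set 1 and -0.01 within chip set 2, with an unadjusted p of 0.016 for the difference between sets by limma. Over all probes, 0 differed between the chip sets in their group difference after adjustment (limma), and 111 did at an unadjusted p under 0.05. The splicing regulator Rbfox2 differed by 0.57 (SE 0.22), and a second Rbfox2 probe by 0.23 (SE 0.18). Lrrc24, which encodes a leucine-rich repeat protein, differed by 0.33, and Adck5, an atypical kinase gene, by 0.27. Sub1, which encodes a transcriptional coactivator, was lower by 0.43 on the log2 scale (difference -0.43, SE 0.18). The clock output factor Tef (0.17), the RNA polymerase III repressor Maf1 (0.14), 1700088E04Rik (0.30), the receptor scaffold Grasp (0.16) and the GATA cofactor Zfpm2 (0.07) had unadjusted p values above 0.05. None of the 12 probes other than Mgat3 and Ly6a passed.

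The other 4 members of the list were detected on too few arrays for the main comparison. Each of their probes is marked for a SNP. Cdpf1 was detected in 0 of 11 low and 11 of 26 high mice, and its log2 values ran from 4.41 to 5.03 in low and from 4.60 to 6.76 in high mice. The zinc finger gene Zfp706 and the marked Atf4 probe were each detected in 0 of 11 low and 9 of 26 high mice, and that of the homeobox gene Dbx2 in 2 of 11 and 9 of 26. The lowest level that counted as detected was taken on each low array and averaged over the low mice. For all 4 the mean of the high mice was below this average, narrowly for Cdpf1 (5.50 against 5.54). No difference, fold change or test is therefore given. With detection on at least 1 array as the limit, 3 of 13449 probes passed (0.0223%), and the third, Cdpf1, entered through the high mice alone and is not counted as a difference. Atf4, which encodes a transcription factor of the integrated stress response, had a second probe without the mark, which passed the detection limit and differed by 0.08 (SE 0.21, limma adjusted p = 0.94).

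Of the 9 probes marked for a SNP, 4 were tested. Mgat3 passed. The other 3 were Phf5a, a splicing factor gene, at -0.18, Nol12, a nucleolar protein gene, at 0.19, and Ly6c1 at 0.06, and none of them passed. The differences of these 4 ran from -1.49 to 0.19. Those of Phf5a (SE 0.15), Nol12 (SE 0.31) and Ly6c1 (SE 0.19) could not be told apart from 0. An opposite direction among marked probes was therefore not shown. The marked Tomm22 probe, which set the groups, is lower in low mice by definition. The marked probes of Cdpf1, Zfp706, Atf4 and Dbx2 were not tested in the main comparison. These probes were below detection on most arrays, so no direction is read from their values.

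Genes listed for outer membrane import and its wider partners did not pass in either direction. The list also holds porins (Vdac1, Vdac2 and Vdac3) and chaperones of the mitochondrial matrix (Hspd1, Hspa9 and Dnaja3). Of its 20 genes, 12 genes with 13 probes were tested, and 0 passed, also at an unadjusted p under 0.05. The median difference was -0.04. Tomm40, the gene of the channel, differed by 0.15 (95% interval -0.13 to 0.42), and Tomm7, which encodes a small subunit, by -0.35 (95% interval -0.81 to 0.11). The receptor gene Tomm70a differed by 0.02 and Tomm6 by -0.20, and the porin gene Vdac1 differed by 0.08 (95% interval -0.06 to 0.22). The summed normalized level of the 13 probes ran from 16084 to 19681 in low mice and from 16220 to 19312 in high mice. This sum is on the linear scale and mostly reflects Vdac1 (mean log2 13.35 in low and 13.26 in high mice). Dim probes such as that of Tomm40 (5.69 and 5.54) add little to it. Of the inner membrane import and processing genes, 16 genes with 20 probes were tested and 0 passed. Both probes of the peptidase gene Pmpca were tested and went opposite ways, at -0.34 for a dim probe (detected in 8 of 11 low and 25 of 26 high mice) and at 0.17 for a probe detected on all 37 arrays.

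The study also links the level of genes on other chromosomes to chromosome 15 genotype. Of 116 such probes, 100 were tested and 0 passed by limma. At an unadjusted p under 0.05 there were 1 lower and 12 higher in low mice, against 0.984% and 2.17% of all probes. The number higher ran from 9 to 18 when single mice were left out. It was 2 with arrays centred on their median and 6 with the BeadChip as a fixed block. Within chip set 1 it was 18 and within chip set 2 it was 0. The median difference was 0.06. This list was chosen on these samples too. A further probe, of the vesicle transport gene Vps13b, has no chromosome in that list but lies on chromosome 15 in the annotation used here, and it differed by -0.39 (SE 0.19, limma adjusted p = 0.88). The circadian repressor Per2 was 8.43 ± 0.27 (SD, n = 11) and 8.10 ± 0.31 (SD, n = 26), a difference of 0.34 (SE 0.11). Ssh3, a slingshot phosphatase gene, differed by 0.42, Tubb2b, a neuronal tubulin gene, by 0.23, and Gmeb2, a transcription factor gene, by 0.35, each with a limma adjusted p of 0.88. Ssh3 differed by 0.77 within chip set 1 and by -0.17 within chip set 2.

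**Figure D4:**
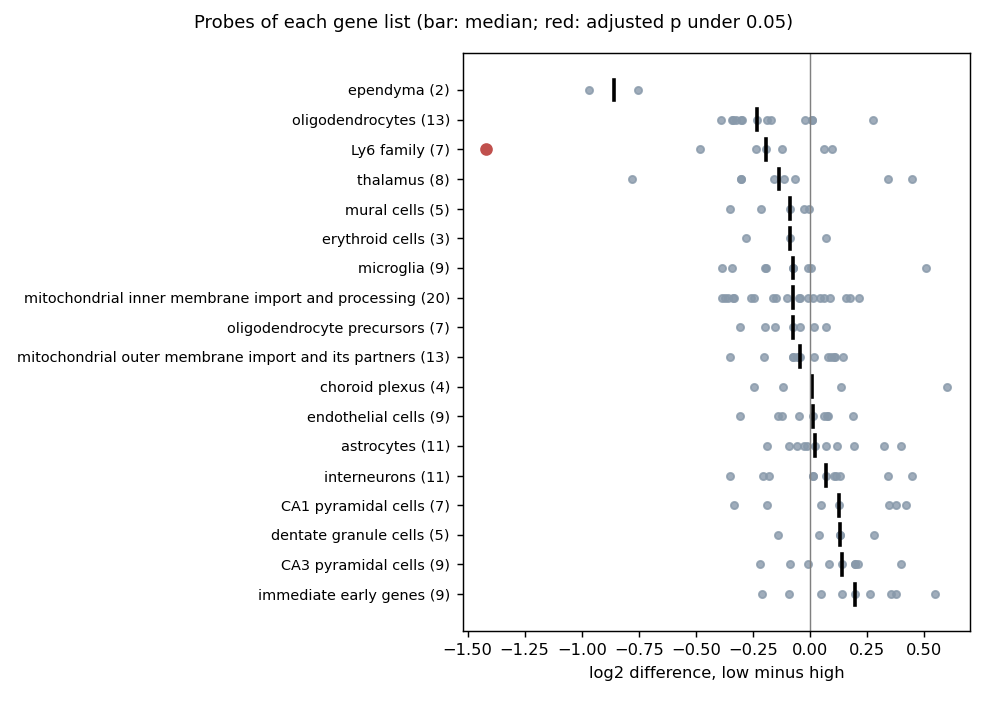
Log2 difference (low minus high) of every tested probe in 18 gene lists, with the number of probes in parentheses and a black bar at the median. Ly6a in red is the only probe of these lists that passed, and the medians lie from -0.86 for 2 ependymal probes to 0.20 for immediate early genes.

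Markers of the cell types in a hippocampal punch were examined for a shift between the groups. No probe of the cell type lists passed. In the oligodendrocyte list 10 of 13 probes had a difference below 0, where 43.7% of all probes did, and the median was -0.23 against 0.03. Of the 13 probes, 3 were lower at an unadjusted p under 0.05 (0.984% of all probes), and 1 to 5 were when single mice were left out. The count was 0 with arrays centred on their median, 5 within chip set 1 and 0 within chip set 2. The 3 of the main fit were Opalin (-0.39), Cnp (-0.30) and Cldn11 (-0.23), all genes of myelin-forming cells. The summed level of the list ran from 19003 to 40484 in low mice (median 27738) and from 17961 to 46652 in high mice (median 32549). Mbp and Mobp, which encode major myelin proteins, differed by 0.01 each. Sox10, a lineage factor of these cells that lies on chromosome 15, 7 tested genes before Tomm22, differed by -0.31.

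Brain endothelial cells express Ly6a, and their markers were set beside it. Of 9 endothelial probes, 4 had a difference below 0 and 5 above it, with a median of 0.01. Emcn was the only one at an unadjusted p under 0.05, at -0.31, whereas Cldn5 differed by -0.12, Pecam1 by 0.07 and Flt1 by 0.19. The summed level ran from 3961 to 6601 in low mice and from 3683 to 7412 in high mice. The 5 mural cell probes had a median of -0.09. Their part in the Ly6a difference was not tested.

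Markers of ependyma, choroid plexus and thalamus, which adjoin the hippocampus, had wide ranges in both groups, and their part in the differences was not tested. The ependymal genes Dynlrb2 and Mia differed by -0.97 and -0.75, with summed levels from 108 to 1299 in low mice and from 73.9 to 4317 in high mice. The choroid plexus list summed to between 268 and 8779 in low mice (median 3498) and between 155 and 22506 in high mice (median 993). The median difference of its 4 probes was 0.01. Of 8 thalamic probes, 6 had a difference below 0 and 2 above it, where 43.7% of all probes were below 0. Their median was -0.13, and 0 reached an unadjusted p under 0.05 by limma. Among them Slc17a6, the vesicular glutamate transporter gene of thalamic neurons, differed by -0.78 (SE 0.40, limma adjusted p = 0.88). Immediate early genes, which follow neuronal activity, had a difference above 0 for 7 of 9 probes and below 0 for 2. Over all probes 43.7% were below 0. The median of the list was 0.20, against 0.03 for all probes. Nptx2 (0.55) and Egr1 (0.38) were the 2 that were higher at an unadjusted p under 0.05 by limma, as were 2.17% of all probes. After adjustment 0 of the 9 passed.

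The split uses only the side of 200 on which a mouse lies. Within the 26 high mice the remaining range of the Tomm22 probe was therefore related to every other probe in a second fit. Of 8540 probes, 3755 (44%) had a slope on Tomm22 that passed the adjusted test, 1564 rising and 2191 falling, and a member that passed stands against this background. Ly6a rose by 1.02 (SE 0.13) on the log2 scale for each unit of Tomm22 (limma adjusted p = 0.00024), the smallest p of all probes. For Mgat3 the slope was 0.11 (SE 0.15, limma adjusted p = 0.57).

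The number of detected probes varied along the same range. Of the 6 high mice with Ly6a above 11, 5 had fewer than 7500 detected probes, and the next highest Ly6a value was 10.26. Mouse 20, with the highest Ly6a value and a Tomm22 log2 value of 11.14, had 5631 detected probes, while mouse 75, with the highest Tomm22 value of 11.24, had 8704. With the number of detected probes as a covariate, 1878 probes passed (22%), and the slopes were 0.81 (SE 0.12, limma adjusted p = 0.0012) for Ly6a and 0.40 (SE 0.10, limma adjusted p = 0.011) for Mgat3. With the BeadChip as a fixed block, 0 probes passed by limma, and the slope of Ly6a was 0.91 (SE 0.15, limma adjusted p = 0.097). In the comparison of low with high mice the same covariate gave -1.20 (limma adjusted p = 0.00028) for Ly6a and -1.59 (limma adjusted p = 1.2e-10) for Mgat3. Without the 6 arrays under 7000 detected probes, of which 1 was a low mouse, the differences were -1.38 (limma adjusted p = 0.0037) and -1.56 (limma adjusted p = 3.6e-07).

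**Figure D5:**
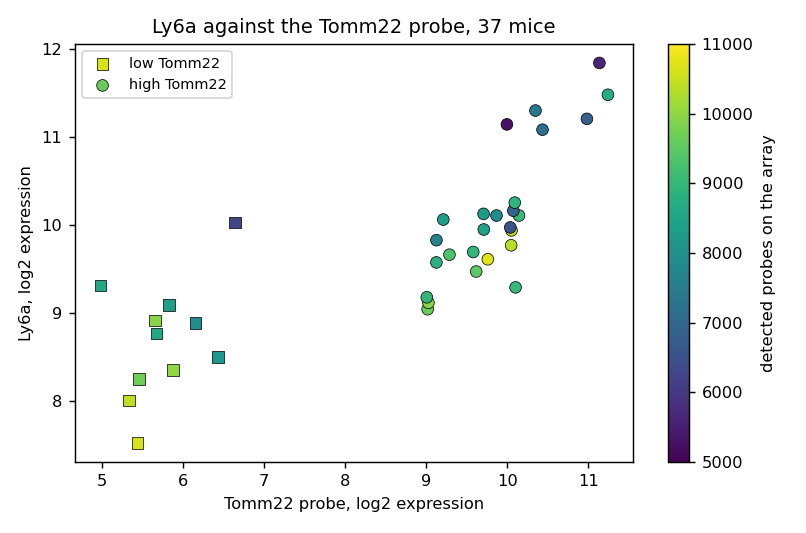
Log2 expression of Ly6a against that of the Tomm22 probe in 11 low (squares) and 26 high (circles) mice, coloured by the number of detected probes on the array. Of the 6 high mice with Ly6a above 11, 5 have fewer than 7500 detected probes.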

How the data were processed

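RNA of the left hippocampus of 37 mice was hybridized to 37 Illumina MouseRef-8 arrays, 1 for each mouse. The deposited table of intensity values comes from BeadStudio without normalization, beside a detection score for each probe, which the authors deposited as well. The authors also deposited log2 values after variance stabilization and robust spline normalization; these served as an alternative. Of 24620 probes in the signal table, 24613 of the normalized table were matched by their ranks within arrays, and gene names came from the platform annotation, or from the study's tables where it gave none, updated to RefSeq (GRCm38.p6), whose order of genes was used. Of the 1305 probes named by both, 1241 had the same gene.

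Groups were made from the quantile-normalized linear signal of the Tomm22 probe. For all tests, background was corrected from the detection scores (nec, offset 16) before quantile normalization and log2, with limma 3.58.1 in R 4.3.3. Probes with a detection score over 0.99 on at least 19 arrays were tested, without the Tomm22 probe, by lmFit and eBayes (two-sided, no covariates), with Benjamini-Hochberg adjustment over 8540 probes. Array measures were compared with 100000 permutations. The script was tested on simulated data. Named are the probes that passed, the chromosome 15 probes of the study's list, the 6 tested genes nearest to Tomm22 on each side, and leading members of the gene lists. Genes named outside this rule (Per2, Ssh3, Tubb2b, Gmeb2, Vps13b and further members of the lists) were chosen after their values were seen. The members and lists were chosen with earlier results of these data known. Other normalizations, filters, BeadChip blocks, chip sets and single mice left out were tried as alternatives. The number of arrays limits the precision.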

Additional observations from a re-analysis of the deposited data

How the results depend on the processing

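The probes that differed were again Mgat3 and Ly6a, both lower, with the authors' normalized values, without background correction, with detection on all 37 arrays, with the BeadChip as a fixed or random block, with chip set or detected probes as a covariate, and without the 6 arrays under 7000 detected probes, a setting chosen after seeing the data. All probes that passed lay on chromosome 15 in each setting named here. The count was 1 with median centring (Ly6a), within chip set 1 (Mgat3), within chip set 2 (Mgat3) and without the SNP-marked probes (Ly6a). Detection on at least 1 array added Cdpf1, which was detected in no low mouse and is not counted as a difference. With single mice left out the count ranged from 1 (without mouse 100) to 3 (without mouse 145). Median centring moved the median difference of all probes from 0.03 to 0.17. The slope on Tomm22 passed for 2135 probes with detection on all 37 arrays, for 1878 with detected probes as a covariate and for 0 with the BeadChip as a fixed block. Leaving out single mice gave 2788 (without mouse 20) to 3924. Under median centring 2646 slopes passed and all rose, against 1564 rising of 3755, and Mgat3 then passed (slope 0.87, limma adjusted p = 0.0086).

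Some differences that had not passed changed sign, among them those of Phf21b (0.47), Fibcd1 (0.42) and Egr4 (0.36). With median centring Kcnj4 was 0.034 and Npcd 0.051. With the BeadChip as a fixed block a Pick1 probe was -0.0031. Within chip set 2, Phf21b was -0.0061, Grasp -0.22, Tmem184b -0.024, Ddx17 -0.023, Sun2 -0.24, Cbx7 -0.061, Tomm7 0.0017, Fibcd1 -0.023 and Egr4 -0.050. With detected probes as a covariate, Zfpm2 was -0.015, Sun2 -0.047, Cbx7 -0.036 and Hbb-bt 0.037. Without the arrays under 7000 detected probes Npcd was 0.0051. With single mice left out Kcnj4 ranged from -0.19 to 0.036, Npcd from -0.15 to 0.041 and Zfpm2 from -0.016 to 0.17. The cause was not tested. No paired analysis was possible because the groups hold different mice and the labels pair none of them.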
